A study of Homo sapiens with 4 samples.

Results

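The DEAD- and DEAH-box helicases are a large family of ATP-driven RNA remodelling enzymes, named after the one-letter code of a conserved motif in their ATPase core. Members were chosen by gene symbol: all rows named DDX or DHX followed by a number and at most 1 letter, without DDX58, DHX58 and DDX3Y, which left 52 of 20323 genes in the deposited tables. Of these, 37 carry a DDX name and 15 a DHX name. Where a symbol had several rows, the row with the largest summed count was taken. A name is not a biochemical class: DDX11, for example, is an iron-sulphur DNA helicase.

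The libraries hold ribosome-protected RNA of HCT-8, a human line from a colorectal adenocarcinoma, made resistant to 5-fluorouracil (5-FU), a pyrimidine analogue used against colorectal tumours. The control group (NC) received a negative control plasmid and the other group (OE) a METTL14 overexpression plasmid. METTL14 pairs with METTL3, and together they write N6-methyladenosine on messages. The resistance and a treatment with cycloheximide at 100 ug/mL, which stalls ribosomes where they stand, were common to both groups. Each group had 2 libraries, and the design text says that the experiment was repeated independently. The sources used here do not say whether the resistant line was a single clone or how long after transfection the cells were taken. Message amount and ribosome load enter a footprint count together, and fewer cells with a message cannot be told apart from less of it per cell. Total RNA was not analysed here, and no translational efficiency was computed. The question that the comparison addresses here is whether footprints on helicase messages differed between OE and NC cells.

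DEAD-box proteins pry apart short RNA duplexes or strip proteins from RNA without running along it, while DEAH-box proteins can travel along an RNA strand. Cells use them at almost every step of a message's life: splicing, export, translation, storage and decay. Many others work in the nucleolus, where each acts at particular steps of ribosome assembly. Dividing epithelial and tumour cells rely on most of them, while a few are normally restricted to germ cells.

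Library totals ran from 7742274 counts (OE replicate 1) to 24392875 (OE replicate 2), and levels below are CPM, counts relative to the scaled library total, after scaling by TMM, edgeR's trimmed-mean factor for library composition. METTL14 itself had 44.5 and 47.6 CPM (NC) against 448 and 91.2 CPM (OE), higher in both OE libraries but unevenly (edgeR, quasi-likelihood, Benjamini-Hochberg adjusted p = 0.734). OE replicate 1 stood apart from the other libraries. Its log2 difference from the NC mean depended on the level of the gene, with a median of 1.16 in the decile of genes with the lowest NC level and -1.08 in the decile with the highest. In OE replicate 2 these medians were -0.09 and -0.08. Of 10 epithelial markers, 9 were above 1 CPM in every library, all but KRT20, with a summed level of 21959 and 21328 CPM (NC) and 6278 and 24779 CPM (OE). Of the 16 markers of fibroblasts, leukocytes, endothelium and erythroid cells, COL1A1 and CD14 were above 1 CPM in every library, and the summed levels were at most 5.22, 13.3, 0.41 and 0.904 CPM. The part of these levels in the results was not tested.

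The 52 members together took between 0.4794% and 0.5432% of the counts of a library. Of them, 48 passed the filter on low counts. The other 4 were all 4 members restricted to germ line or testis. DDX25, DDX43 and DDX53 had 0 counts in every library, where 3 counts would be between 0.136 and 0.286 CPM. DDX4, the vasa helicase of germ cells, had 0 counts in 3 libraries and 10 in OE replicate 1. The 48 tested members lay between the third and the highest decile of genes by NC level, with 27 of them in the top 3 deciles.

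No tested member passed the threshold of 0.05: with edgeR (quasi-likelihood) and Benjamini-Hochberg adjustment over 12560 genes, 0 of 48 members were called, and 0% of all tested genes. The smallest adjusted p among members was 0.734, that of DHX34, DHX9, DDX55, DDX24, DHX8, DDX60, DDX21 and DHX15 among others. Of the other members given below in full, DDX28, DDX19B, DDX17, DDX5, DDX1 and DDX3X had edgeR adjusted p values of 0.771, 0.777, 0.809, 0.823, 0.836 and 0.855. Those of DDX19A, DDX39A, DDX56, DDX39B, DDX50 and DDX20 were 0.894, 0.899, 0.925, 0.932, 0.936 and 0.985 by edgeR. At an unadjusted p below 0.05 there were 4 members (8.33%), against 5.50% of all genes: DHX34 and DDX55, higher in OE, and DHX9 and DDX24, lower. The DESeq2 Wald test, limma with quality weights and the fit with a replicate block called 0 members as well. With 2 libraries against 2, the exact two-sided permutation test of a single gene cannot go below 0.333.

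The median log2 fold change of the 48 tested members was -0.22, against 0.09 for all tested genes. Both OE libraries lay below the NC pair for 18 members (37.5%), beside 20.4% of all tested genes. They lay above it for 6 (12.5%), beside 19.9%. The groups did not overlap for these 24, beside 40.3% of all tested genes, and overlapped for the remaining 24. These shares depended on scaling. With library totals as the only scaling, 10 members were lower in both and 12 higher, beside 11.7% and 30.2% of all genes. The members that were lower in both with TMM and overlapped with totals were DDX5, DDX27, DDX60, DHX8, DHX29, DHX30, DHX32 and DHX57. The median over all genes was then 0.40 and that of the members 0.10, so the members stayed below it by a like amount. All tested genes of the top 3 deciles, which held 27 members, had medians between -1.08 and -0.34 in OE replicate 1. In that library the median member was 0.37 log2 units below the NC mean, and 22 of 48 members lay below the median of all genes in their own decile of NC level. In OE replicate 2 the median member was 0.07 below the NC mean, and 28 of 48 lay below the median of their decile. The part of NC level in the family's lower median was not tested.

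**Figure D1:**
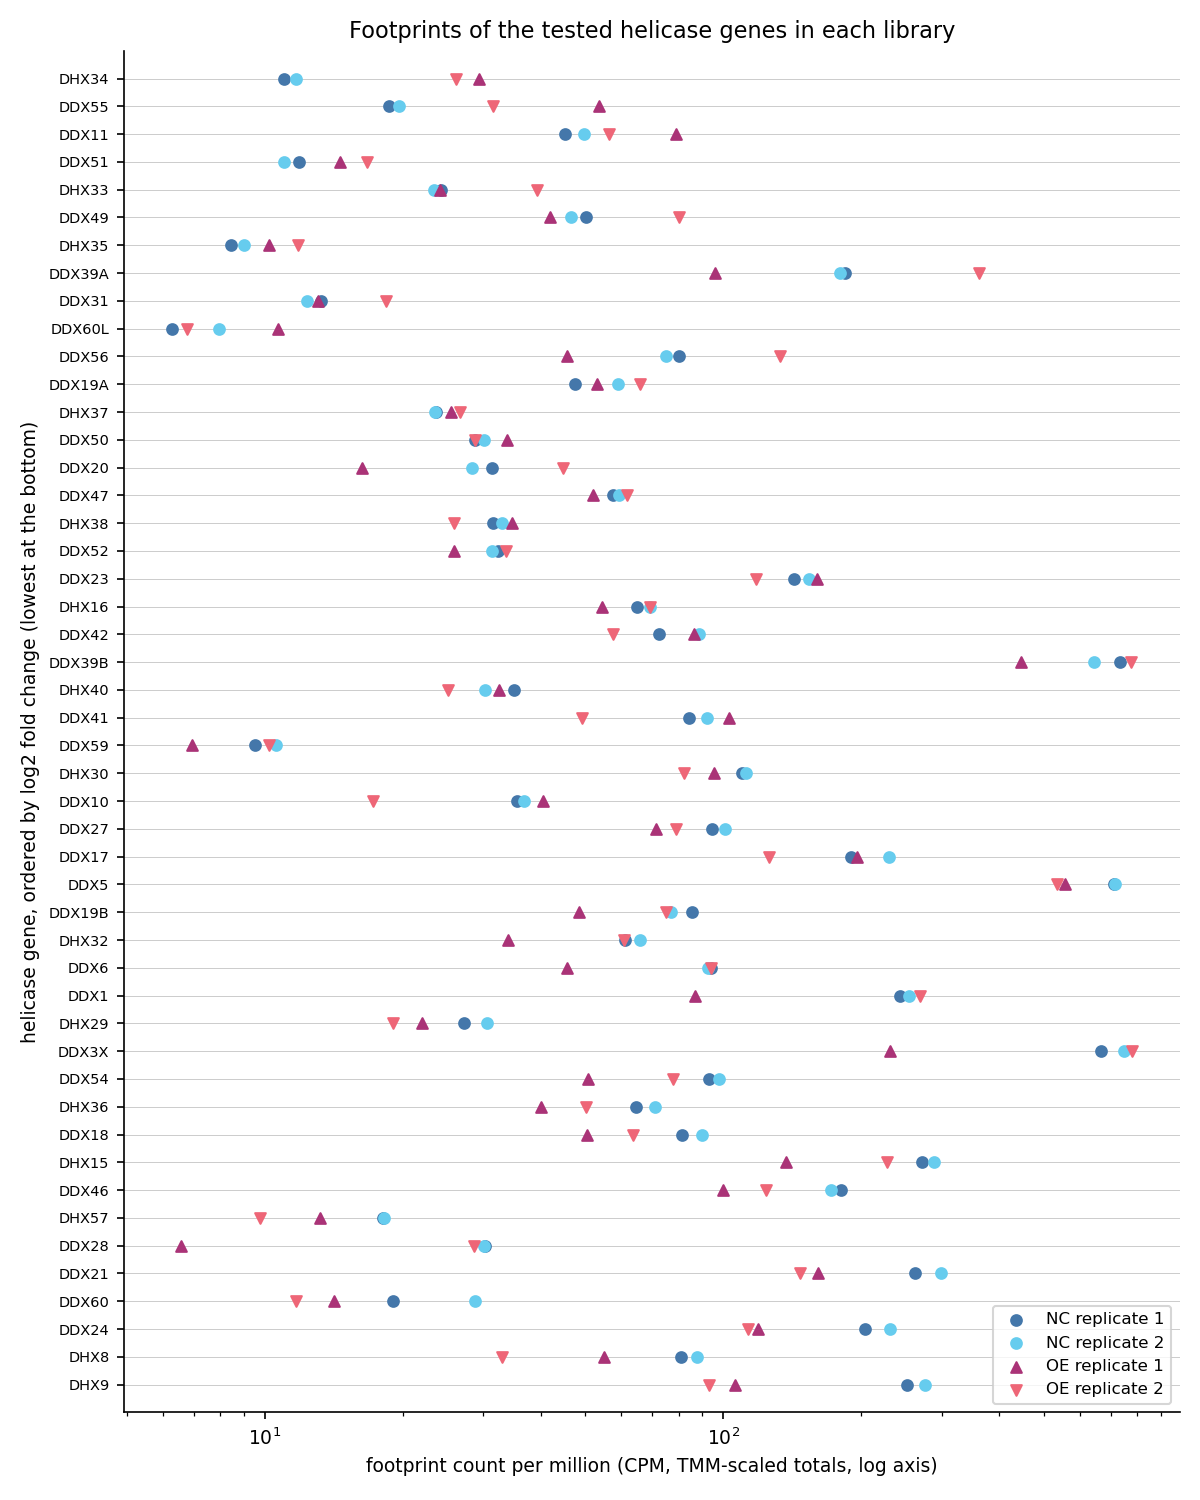
Footprint level in CPM (log axis) of each of the 48 tested helicase genes in the 4 libraries, ordered by the fitted log2 fold change of OE over NC. Circles are the NC libraries and triangles the OE libraries. The NC circles lie close together in most rows. The OE triangles lie on the same side of both circles in 24 rows and are often far apart from each other.

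The NC libraries were close to each other on these genes and the OE libraries were not. Over the 48 members, log2 differences within the NC pair had an SD of 0.15, and those within the OE pair 0.78. The same values over all tested genes were 0.46 and 1.30.

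**Figure D2:**
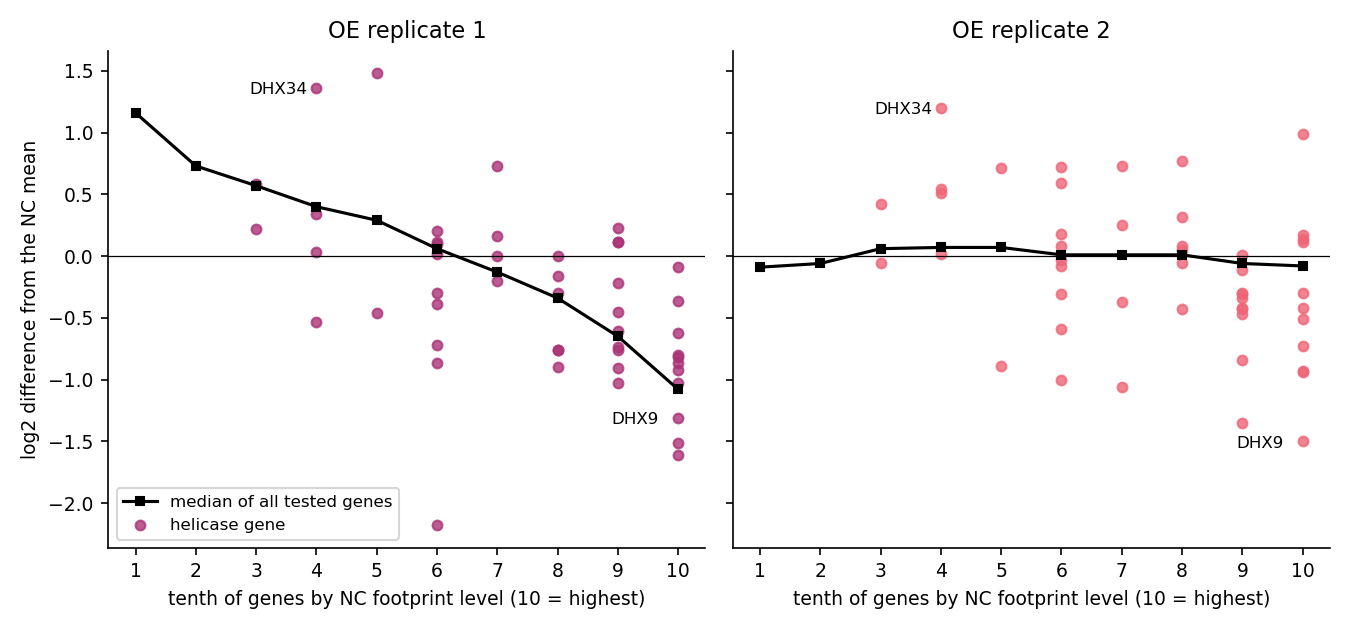
Log2 difference of each tested helicase gene from the NC mean, with a panel for each OE library, against the decile of genes by NC level that holds it (10 is the highest). The black line is the median of all tested genes in each decile. It goes from 1.16 to -1.08 for OE replicate 1 and stays near 0 for the other. DHX9 lies far below the line in OE replicate 2 only, and DHX34 above it in both.

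DHX9 had the lowest log2 fold change of the members. It is RNA helicase A, which unwinds long RNA duplexes and RNA-DNA hybrids in the nucleus. DHX9 (ENSG00000135829) had 252 and 275 CPM (NC) against 106 and 93.1 CPM (OE). The group means were 264 ± 16.6 and 99.7 ± 9.25 CPM (SD, n = 2 per group). The exact Poisson intervals (95%, for counting error alone) ran from 245 to 259 and 268 to 283 CPM in NC, and 100 to 113 and 89.2 to 97.3 CPM in OE. Both OE libraries were well below both NC libraries and close to each other. The log2 fold change was -1.40 (SE 0.36, adjusted p = 0.734 by edgeR's quasi-likelihood test). DHX9 belongs to the decile of genes with the highest NC level. Its difference from the NC mean was -1.31 in OE replicate 1, near the -1.08 of that decile, and -1.50 in OE replicate 2, where the decile had -0.08. Over all settings tried its log2 fold change stayed between -1.50 and -1.05. Among the fits over all 4 libraries the smallest adjusted p was 0.236, from DESeq2.

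DHX34 had the highest log2 fold change of the members. It is a DEAH-box helicase that assists UPF1 in nonsense-mediated decay, the destruction of messages with premature stop codons. DHX34 (ENSG00000134815) had 11 and 11.7 CPM (NC) against 29.3 and 26.2 CPM (OE). The group means were 11.3 ± 0.492 and 27.8 ± 2.19 CPM (SD, n = 2 per group). The Poisson 95% intervals were 9.55 to 12.5 and 10.1 to 13.4 CPM in NC, and 26.1 to 32.8 and 24.1 to 28.4 CPM in OE. Again the OE libraries were close to each other and apart from NC. The log2 fold change was 1.29 (SE 0.29, adjusted p = 0.734 by edgeR's quasi-likelihood test). Genes of its decile of NC level differed from the NC mean by a median of 0.40 (OE replicate 1) and 0.07 (OE replicate 2), and DHX34 itself by 1.36 and 1.20. Its log2 fold change stayed between 1.21 and 1.64 over all settings tried, with 0.497 as the smallest adjusted p over all 4 libraries. UPF1, its partner and itself an RNA helicase, had 59.5 and 55.1 CPM (NC) against 43.7 and 55.7 CPM (OE).

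Because DHX9 and DHX34 had the lowest and the highest fitted log2 fold change of the members, the sequence before the start site of each is shown. The 250 bases come from RefSeq's promoter table (build GRCh38.p14), matched by symbol, and are written 5′ to 3′ on the gene's strand. Capitals mark the CCAAT box (CCAAT), the GC box (GGGCGG) and the E-box (CACGTG) on either strand.
DHX9 (chr1:182839097-182839346, plus strand): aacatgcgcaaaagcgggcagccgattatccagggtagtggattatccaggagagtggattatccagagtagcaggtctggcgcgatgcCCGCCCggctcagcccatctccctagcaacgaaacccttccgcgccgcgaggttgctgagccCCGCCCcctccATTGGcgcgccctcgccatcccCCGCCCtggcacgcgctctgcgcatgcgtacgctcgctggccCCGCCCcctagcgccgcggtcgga
DHX34 (chr19:47349065-47349314, plus strand): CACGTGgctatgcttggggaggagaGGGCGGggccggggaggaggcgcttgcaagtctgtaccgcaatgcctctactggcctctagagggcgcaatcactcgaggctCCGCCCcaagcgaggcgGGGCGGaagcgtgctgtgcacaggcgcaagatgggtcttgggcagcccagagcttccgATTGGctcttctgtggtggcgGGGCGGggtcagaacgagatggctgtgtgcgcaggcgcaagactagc

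Each window held 4 matches of GGGCGG and 1 of CCAAT, and CACGTG was found only in that of DHX34. Of the 52 members, 48 had an entry in the table. These are not the 48 tested members. They include the untested DDX4, DDX25, DDX43 and DDX53 and lack the tested DDX18, DDX49, DDX52 and DHX33. CCGGAAG was found on either strand before a start site of 18 of the 48 (37.5%), against 10.2% of the 27305 genes in the table and 19.3% of the 10006 tested genes in it. CACGTG was found for 9 members (18.8%; 7.7% of all genes and 11.3% of tested genes) and TGACGTCA for 5 (10.4%; 2.0% and 3.5%). CCAAT was found for 25 members (52.1%, against 37.0% of all genes and 41.9% of tested genes), the untested DDX4, DDX25, DDX43 and DDX53 among them. GGGCGG was found for 30 (62.5%; 46.2% and 75.4%) and TATAAA for 4 (8.3%; 13.0% and 8.1%). A gene with several start sites counted once, and has more chances of a match. A match describes letters only; no binding was measured.

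Of the 9 helicases of the spliceosome, 3 were lower in both OE libraries (33.3%, beside 20.4% of all tested genes), 1 was higher (11.1%, beside 19.9%) and 5 overlapped. DHX8, which releases the spliced message, had 81.1 and 87.6 CPM (NC) against 55.0 and 32.9 CPM (OE), a log2 fold change of -0.94 (SE 0.38). It lay below both NC libraries in each OE library, with -0.61 and -1.35 from the NC mean, and no longer did so with library totals as the only scaling, where it had -0.54. DHX15, which takes apart spent spliceosomes, had 272 and 288 CPM (NC) against 137 and 228 CPM (OE), with -0.62 (SE 0.43). DDX46, needed for the first binding of the branch site, had 181 and 172 CPM (NC) against 100 and 124 CPM (OE), with -0.65 (SE 0.34). DHX35 was the member higher in both, at 8.45 and 9.03 against 10.2 and 11.8 CPM, with 0.33. DDX23, DDX41, DDX42, DHX16 and DHX38 overlapped, with log2 fold changes from -0.21 to -0.09. All 5 of these turned positive with library totals as the only scaling, to between 0.18 and 0.28. In OE replicate 2 alone, 7 of the 9 lay below both NC libraries (77.8%, beside 42.6% of all tested genes), and in OE replicate 1 alone 4 did (44.4%, beside 45.5%). Against the median of their own decile of NC level, 1 of the 9 was lower in OE replicate 1 and 7 in OE replicate 2. DHX8, DHX15 and DDX46 lay 0.03, 0.05 and 0.26 above that median in OE replicate 1. In OE replicate 2 they lay 1.29, 0.22 and 0.43 below it. The adjusted p values of these 9 were 0.734 or more by edgeR's quasi-likelihood test.

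The nucleolar helicases were divided. Of 16 tested members in ribosome assembly and related nucleolar work, 8 had a log2 fold change above 0 and 8 below, with a median of 0.03. Of all tested genes 43.8% were below 0, with a median of 0.09, so this division was close to that of the whole table. Both OE libraries lay below the NC pair for 5 of the 16 (31.2%, beside 20.4% of all tested genes). They lay above it for 3 (18.8%, beside 19.9%). DDX21, which binds pre-ribosomal RNA and acts in its transcription, had 262 and 298 CPM (NC) against 161 and 147 CPM (OE). The group means were 280 ± 25.2 and 154 ± 9.90 CPM (SD, n = 2 per group). DDX24, a factor of the large subunit, had 204 and 231 CPM (NC) against 119 and 113 CPM (OE). Both were low in each OE library, with log2 fold changes of -0.86 (SE 0.37) for DDX21 and -0.91 (SE 0.35) for DDX24, or -0.52 and -0.57 when scaled by totals alone. In OE replicate 1 they lay 0.28 and 0.21 above the median of their decile of NC level, and in OE replicate 2 0.85 and 0.86 below it. DDX50, the close relative of DDX21, had 28.7 and 30.1 CPM (NC) against 33.8 and 28.8 CPM (OE), which overlapped. DDX21 minus DDX50 was 3.18 and 3.30 on the log2 scale in NC and 2.25 and 2.34 in OE. This within-library difference does not depend on scaling but is not corrected for gene length. The medians of their deciles of NC level were -1.08 (DDX21) and 0.06 (DDX50) in OE replicate 1. In OE replicate 2 those medians were -0.08 and 0.01. The part of NC level in the difference was not tested.

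Among the other large-subunit factors, DDX18, DDX27 and DDX54 were lower in both OE libraries, with log2 fold changes of -0.59, -0.38 and -0.57, which totals alone moved to -0.29, -0.06 and -0.30. DDX55 and DDX51 were higher in both. DDX55 had 18.7 and 19.6 CPM (NC) against 53.6 and 31.5 CPM (OE), with 1.15 (SE 0.37). Its OE libraries differed from each other more than its NC libraries did, yet both lay above NC. DDX51 had 11.9 and 11 CPM (NC) against 14.6 and 16.7 CPM (OE), with 0.45 (SE 0.32). DDX56 went both ways, with 80.2 and 75.2 CPM (NC), 45.7 CPM (OE replicate 1) and 133 CPM (OE replicate 2). DDX31 overlapped with NC.

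The 5 small-subunit factors had a median log2 fold change of -0.04. Of these, 1 member, DHX37, was higher in both OE libraries (20.0%, beside 19.9% of all tested genes). DHX37, which acts on the small nucleolar RNA U3 (a guide of pre-ribosomal RNA cutting), had 23.6 and 23.5 CPM (NC) against 25.5 and 26.7 CPM (OE), with 0.15 (SE 0.27). DDX10 was uneven at 35.6 and 36.7 CPM (NC), 40.5 CPM (OE replicate 1) and 17.2 CPM (OE replicate 2). DDX47, DDX49 and DDX52 overlapped with NC. DHX33, linked to ribosomal RNA synthesis, had 24.2 and 23.4 CPM (NC) against 24.1 and 39.3 CPM (OE).

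**Figure D3:**
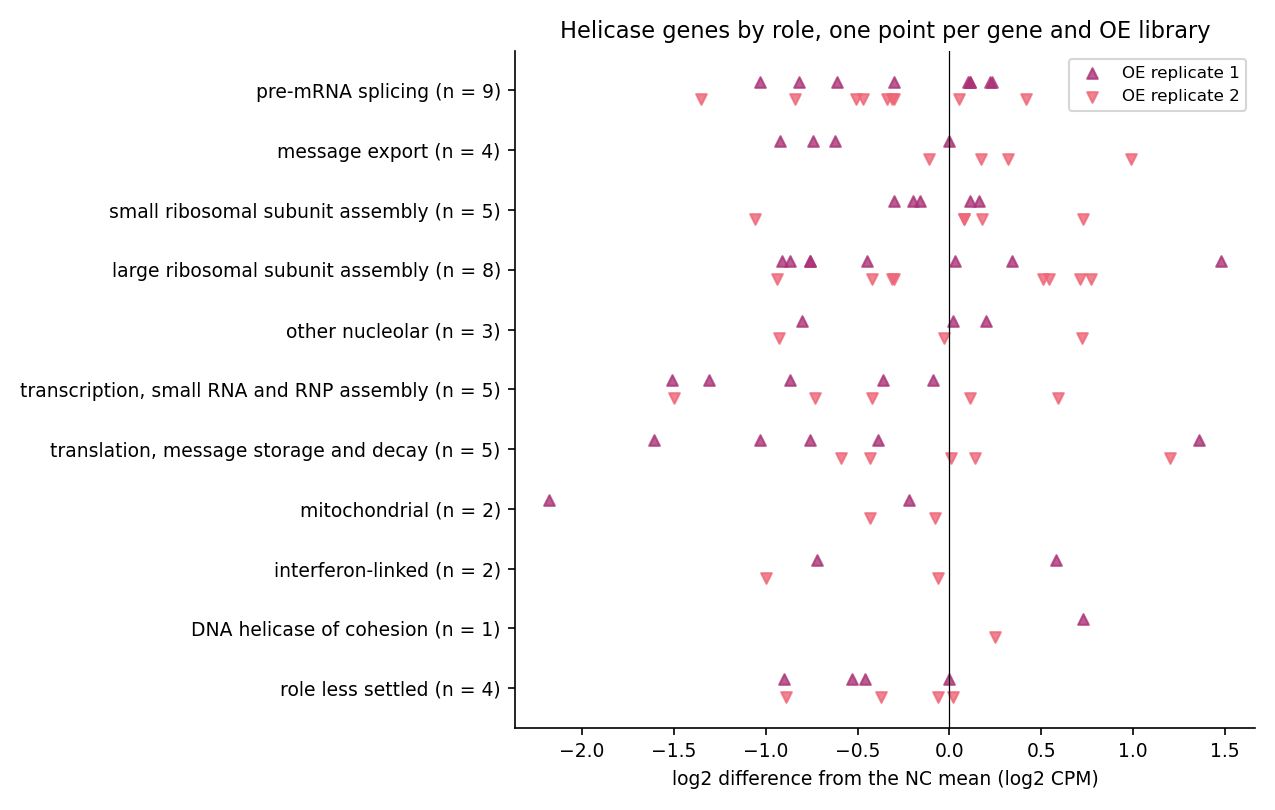
Log2 difference from the NC mean for each tested helicase gene, grouped by role, with upward triangles for OE replicate 1 and downward triangles for OE replicate 2. Each role spans both sides of 0 in at least 1 library, except the DNA helicase DDX11, which is above 0 in both, and the mitochondrial pair, which is below 0 in both. The splicing helicases lie mostly below 0 in OE replicate 2, and the export helicases lie at or below 0 in OE replicate 1 and mostly above it in OE replicate 2.

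The export helicases differed between the OE libraries. DDX39B (UAP56), which loads export factors onto messages, had 733 and 645 CPM (NC), 447 CPM (OE replicate 1) and 776 CPM (OE replicate 2). DDX39A, its close relative, had 184 and 180 CPM (NC), 96 CPM (OE replicate 1) and 361 CPM (OE replicate 2). Both were below NC in the first OE library and above it in the other. The fitted log2 fold changes of -0.17 (SE 0.53) and 0.33 (SE 0.68) average opposite values. Both genes belong to the decile with the highest NC level, whose median was -1.08 in the first OE library. There DDX39B lay 0.46 and DDX39A 0.16 above that median, so neither was lower than the typical gene of its level. In the other library the decile had -0.08, and they lay 0.25 and 1.06 above it. ALYREF, which DDX39B places on messages, had the same order of libraries, with 331 and 319 CPM (NC), 119 CPM (OE replicate 1) and 620 CPM (OE replicate 2). Other binding partners went other ways. THOC1 was higher in both OE libraries, with 34.9 and 32 CPM (NC) against 51.8 and 44.7 CPM (OE). SARNP was lower in both, with 175 and 161 CPM (NC) against 106 and 139 CPM (OE). THOC2 overlapped, with 70.1 and 78.7 CPM (NC) against 70.7 and 44.7 CPM (OE). DDX19A and DDX19B, which strip proteins from messages at the nuclear pore, had fitted values of 0.16 (SE 0.32) and -0.39 (SE 0.36) on the log2 scale. DDX19A had 47.4 and 59.1 CPM (NC) against 53.1 and 66 CPM (OE), and DDX19B 85.5 and 76.8 CPM (NC) against 48.5 and 75.2 CPM (OE). DDX19B was listed in 2 rows, of which the other, a readthrough with DDX19A, held a summed count of 149 against 5144. Adding it gave -0.33. Reads of such similar genes may be shared between rows, so the level of each within a pair is uncertain.

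DDX5 and DDX17 are paralogues that act as co-regulators of transcription and in microRNA processing. DDX5 had 710 and 717 CPM (NC) against 557 and 534 CPM (OE), close within each group, with a log2 fold change of -0.39 (SE 0.46) that became -0.05 under scaling by totals alone. DDX17 overlapped, with 190 and 230 CPM (NC) against 196 and 126 CPM (OE); its log2 fold change of -0.38 (SE 0.41) turned to 0.01 with library totals. DROSHA and DGCR8, the microRNA processing enzyme and its partner, were higher in both OE libraries, DROSHA only narrowly in OE replicate 2. Of the 23 binding partners they were taken from, 5 (21.7%) were higher in both and 3 (13.0%) lower, beside 19.9% and 20.4% of all tested genes. DGCR8 had 19.8 and 17.6 CPM (NC) against 37.5 and 43.4 CPM (OE), with 1.11 (SE 0.29, adjusted p = 0.734 by edgeR's quasi-likelihood test). DROSHA had 43.6 and 61.3 CPM (NC) against 106 and 64.2 CPM (OE), with 0.70 (SE 0.40).

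DDX1 and DDX20 sit in stable complexes. DDX1, in the transfer RNA ligase complex, had 243 and 254 CPM (NC), 86.9 CPM (OE replicate 1) and 269 CPM (OE replicate 2). RTCB, the ligase itself, had 180 and 160 CPM (NC), 52 CPM (OE replicate 1) and 178 CPM (OE replicate 2). Both were low in OE replicate 1 only, at -1.51 (DDX1) and -1.70 (RTCB) from the NC mean. Genes of their decile of NC level had a median of -1.08 in that library, and these 2 genes lay 0.43 and 0.62 below it. DDX20, of the SMN complex that builds spliceosomal particles, had 31.3 and 28.3 CPM (NC), 16.3 CPM (OE replicate 1) and 44.8 CPM (OE replicate 2). GEMIN4, of the same complex, had 60.5 and 61.1 CPM (NC) against 29.2 and 117 CPM (OE). These 4 genes had fitted log2 fold changes between -0.56 and 0.27, each an average of unlike libraries.

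**Figure D4:**
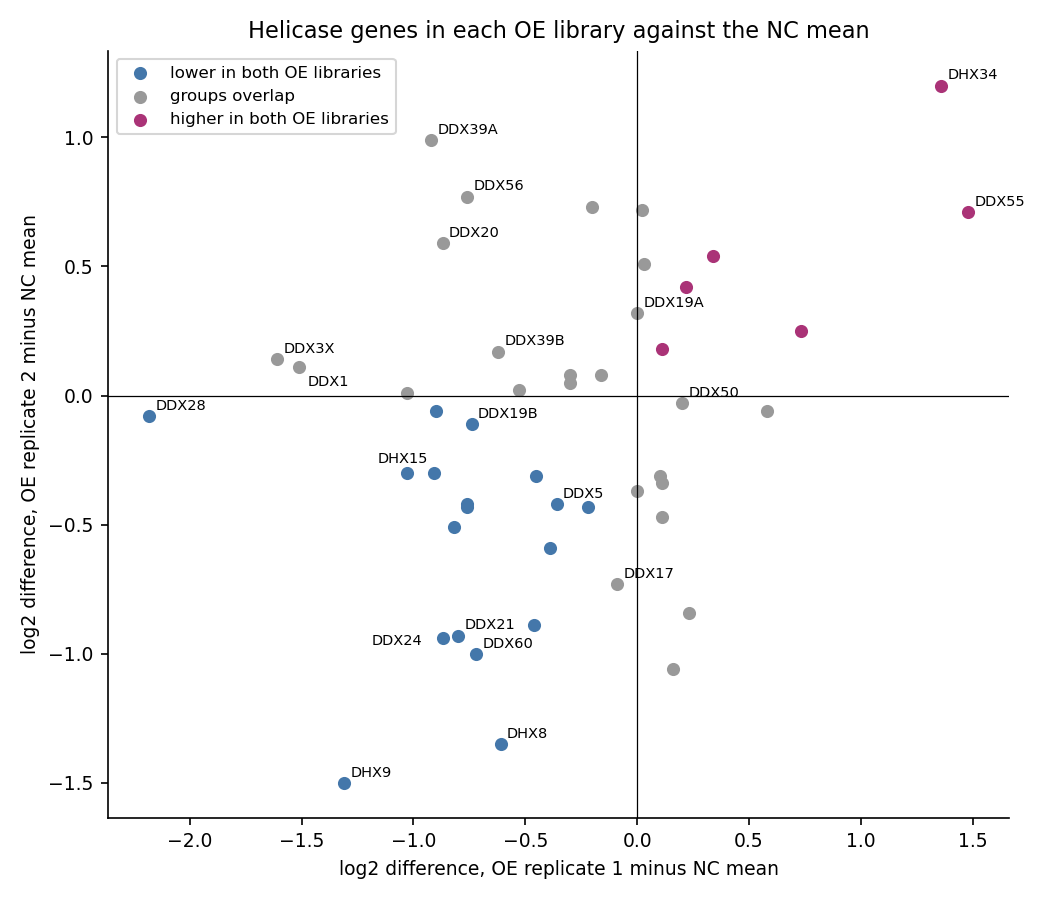
Log2 difference from the NC mean in OE replicate 2 against that in OE replicate 1 for the 48 tested helicase genes; colours show whether the OE libraries both lie below, both above or overlap with the NC libraries. DHX9 is at -1.31 and -1.50, DHX34 at 1.36 and 1.20. DDX39A, DDX56 and DDX20 lie at the upper left, low in OE replicate 1 and high in OE replicate 2.

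Of the 5 helicases of translation, storage and decay, DHX29 and DHX36 were lower in both OE libraries (40.0%, beside 20.4% of all tested genes). DHX34 was higher (20.0%, beside 19.9%), and DDX3X and DDX6 overlapped. DDX3X, which helps ribosomes start on structured leaders, had 666 and 750 CPM (NC), 231 CPM (OE replicate 1) and 778 CPM (OE replicate 2). It was far below NC in the first OE library and not in the other, so that its log2 fold change of -0.49 (SE 0.70) became 0.14 when OE replicate 1 was left out and -1.65 when the other was. DDX6, the core helicase of P-bodies where messages are stored, was likewise low in OE replicate 1 only, with 94 and 92.6 CPM (NC) against 45.6 and 94.1 CPM (OE). DHX36, which unwinds G-quadruplexes, had 64.5 and 71 CPM (NC) against 40.0 and 50.1 CPM (OE), with -0.59 (SE 0.31), or -0.29 when scaled by totals alone. DHX29, which binds the small subunit and aids scanning, had 27.2 and 30.5 CPM (NC) against 22 and 19.1 CPM (OE), with -0.49 (SE 0.29), or -0.14 when scaled by totals alone.

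Both mitochondrial helicases were lower in both OE libraries (beside 20.4% of all tested genes), in very different amounts. DDX28, of the mitochondrial ribosome, had 30.3 and 30.1 CPM (NC), 6.57 CPM (OE replicate 1) and 28.6 CPM (OE replicate 2). Its Poisson 95% intervals in OE replicate 2 (26.4 to 30.9 CPM) and NC replicate 2 (27.5 to 32.8 CPM) overlapped. Its log2 fold change of -0.77 (SE 0.69) became -0.08 when OE replicate 1 was left out and -2.24 when the other was. DHX30 had 110 and 112 CPM (NC) against 95.3 and 82.3 CPM (OE), with -0.32, which became 0.03 under scaling by totals alone. DDX60, an interferon-induced helicase, had 19.1 and 28.8 CPM (NC) against 14.2 and 11.7 CPM (OE), with -0.89 (SE 0.35), or -0.54 when scaled by totals alone; its NC libraries differed by 0.60 on the log2 scale, NC replicate 1 being the lower. Its neighbour in sequence, DDX60L, overlapped with NC and had 0.29. DDX11, which helps hold sister chromatids together, had 45.3 and 49.8 CPM (NC) against 78.8 and 56.4 CPM (OE), with 0.51 (SE 0.33). Of 4 members whose role is less settled, DHX57 and DHX32 were lower in both OE libraries, with -0.66 and -0.42 (totals alone gave -0.29 and -0.17), and DHX40 and DDX59 overlapped. DHX32 had 61.0 and 65.8 CPM (NC) against 33.9 and 60.9 CPM (OE), so that its groups barely separated. They overlapped with RLE scaling (the size factors of DESeq2), with no filter and without NC replicate 2.

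The 15 DHX members and the 33 tested DDX members both had a median log2 fold change below that of all genes, with -0.32 and -0.21. Members lower in both OE libraries made up 8 of 15 (53.3%) and 10 of 33 (30.3%), beside 20.4% of all tested genes. Those higher made up 3 of 15 (20.0%) and 3 of 33 (9.09%), beside 19.9%. The difference between the names was not tested.

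With only one OE library kept, many members passed, and so did much of the table. Without OE replicate 1, edgeR's quasi-likelihood test called 25 of 48 members, 9 higher and 16 lower, beside 34.1% of all genes (16.8% higher and 17.3% lower). Without OE replicate 2 it called 25, 3 higher and 22 lower, beside 60.9% of all genes (30.1% higher and 30.8% lower). Both fits use the same NC libraries and take their spread from the NC pair alone, with the lone OE library assumed to vary like it. DHX9 had -1.50 in the former and -1.35 in the latter, DHX34 1.21 and 1.33, DDX24 -0.94 and -0.91, DDX21 -0.93 and -0.84, DHX8 -1.36 and -0.66, DDX55 0.72 and 1.44, and DDX60 -1.03 and -0.79. DDX39A had 0.99 and -0.97, DDX56 0.77 and -0.81, DDX20 0.59 and -0.91, and DDX1 0.12 and -1.56. In the 4 library fit these last members averaged to values near 0 or with a large standard error.

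Genes that work beside the helicases gave no call either. For the lists that follow, all tested genes lay below NC in both OE libraries in 20.4% of cases and above in 19.9%, with a median log2 fold change of 0.09. Of 9 genes of eIF4A, the founding DEAD-box factor of translation initiation, and its cofactors, 0 passed edgeR's test and 3 (33.3%) lay below NC in both OE libraries, none above, at a median log2 fold change of -0.21. EIF4A1 had 2818 and 2717 CPM (NC), 734 CPM (OE replicate 1) and 3486 CPM (OE replicate 2), while PDCD4, an inhibitor of eIF4A, had 39.9 and 48 CPM (NC) against 28.5 and 27.9 CPM (OE). Of 10 RNA helicases outside the DDX and DHX names, 0 passed and 5 lay below NC in both OE libraries, none above, at a median of -0.38. MTREX, the helicase of the nuclear exosome, had 72.2 and 81.5 CPM (NC) against 44.4 and 42.3 CPM (OE), with -0.83 (SE 0.30), and SNRNP200, which unwinds the spliceosome's U4 and U6 RNAs, had -0.85 (SE 0.46). YTHDC2, a DEAH-box helicase that also reads N6-methyladenosine, had 18.3 and 24.4 CPM (NC) against 17.0 and 12.3 CPM (OE).

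Of 23 G-patch proteins, a class that can activate DEAH-box helicases, 0 passed, at a median of 0.17. In both OE libraries 7 (30.4%) lay below and 3 (13.0%) above NC, beside 20.4% and 19.9% of all tested genes. SUGP2 had the highest value among them with 1.36, from 179 CPM in OE replicate 1 beside 48.4 CPM in OE replicate 2 and 44.6 and 44.0 CPM in NC. Of 23 binding partners of DEAD-box helicases, 0 passed, 3 (13.0%) were lower in both and 5 (21.7%) higher, with a median of -0.04. MAGOH, of the exon junction complex that holds eIF4A3 on messages, was lowest at 213 and 210 CPM (NC) against 55.4 and 156 CPM (OE). At an unadjusted p below 0.05 these 4 lists held 0, 1, 0 and 1 genes, MTREX and DGCR8.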

How the data were processed

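The authors deposited an expected count per Ensembl gene for each of the 4 libraries, in a column named as a count per the file headers. Not all were whole (13.8% to 14.7% had decimals, depending on the library), and rounding came first. RSEM, StringTie, HISAT2, Bowtie2, fastp and the build hg18 are listed, without roles, per the submitters' processing notes. The sources used here do not give versions, annotation, strand or multi-read settings. Reads of near-identical, overlapping or antisense genes may therefore be shared. No transcript lengths were used, so levels are compared within a gene only. The fixed rule for full values asked for the 5 highest members per length; the 5 highest by CPM were taken instead. No protein sequences were used.

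Genes were kept by filterByExpr (minimum count 10, total 15, proportion 0.7), scaled by TMM (factors 0.889, 0.912, 1.36 and 0.907), and tested in R 4.3.3 with edgeR 4.0.16, with limma 3.58.1 and DESeq2 1.42.0 as alternatives. Group was the only term. The biological coefficient of variation was 0.423, with 2 residual degrees of freedom. Adjustment was by Benjamini-Hochberg over all tested genes, at 0.05. Log2 differences of single libraries use log2 CPM with a prior count of 2. The scripts were tested on simulated data. No source names separate cultures beyond the independent repeat, so p-values measure only the spread between these libraries. Replicates differed beyond sampling noise (chi-square per degree of freedom 11.53 in the NC pair, 292.6 in the OE pair).

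Members, roles, gene lists and motifs were chosen with earlier results of these data known. Full values go to the highest members, those whose groups do not overlap with a log2 fold change of at least 0.75 in size, the 6 members least even between OE libraries at 10 CPM or more, and 4 paralogue pairs. Other members given with values were picked after these were seen.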

Additional observations from a re-analysis of the deposited data

How the results depend on the processing

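Of the 20 members described in full, all kept their direction with RLE scaling, no filter, a minimum count of 50 and DESeq2, and none of these called a member. Library totals as the only scaling moved the members' median from -0.22 to 0.10, and turned DDX17 to 0.01 and DDX39B to 0.08. With it 12 members were higher and 10 lower in both OE libraries, beside 30.2% and 11.7% of all tested genes. Limma with quality weights turned DDX20 to -0.14, DDX39A to -0.19 and DDX56 to -0.11. Over all genes, DESeq2 called 25 and the fit with the replicate block 24, in place of 0. The block called 0 members and turned DDX20 to -0.13. The correlation of the deviations of same-numbered libraries was -0.0974. With an OE pair so uneven, this value cannot decide whether the numbers pair the libraries, and no source used here says so.

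Leaving out each library in turn gave between 7 and 7969 genes past the threshold, with 7 without NC replicate 2, 11 without NC replicate 1, 4329 without OE replicate 1 and 7969 without OE replicate 2. For members the median ran from -0.41 to -0.07, with 8 to 20 higher and 19 to 31 lower. With a library left out, 25.4% to 46.9% of all tested genes were higher and 24.8% to 45.5% lower. Among the 20 members described in full, those that turned under any such fit had these ranges: DDX1 -1.56 to 0.12, DDX3X -1.65 to 0.14, DDX39B -0.66 to 0.17, DDX39A -0.97 to 0.99, DDX56 -0.81 to 0.77, DDX20 -0.91 to 0.59, DDX19A -0.04 to 0.31 and DDX50 -0.03 to 0.16. The negative ends of DDX39A, DDX56, DDX20 and DDX19A came without OE replicate 2. The positive ends of DDX1, DDX3X and DDX39B, and the negative end of DDX50, came without OE replicate 1. Members outside these 20 turned too, to values between -0.25 (DDX49) and 0.19 (DDX41), both without OE replicate 2; the cause of the difference between these libraries was not tested. The depth of OE replicate 1 widens the counting error of low members there. DDX28 had 69 counts there, or 6.57 CPM, against 28.6 to 30.3 CPM in the other libraries. Its Poisson 95% interval there (5.11 to 8.31 CPM) lay below those of the other libraries, and the cause of the low value was not tested.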
